A study of Homo sapiens with 12 samples.

Results

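Cytoplasmic polyadenylated RNA of HEK293T cells lacking Staufen1 was compared with that of control cells, with 1 library on each side. HEK293T is a human embryonic kidney cell line. The knockout library (KO) came from cells in which STAU1 was disrupted with a paired Cas9 nickase, and the labels describe 1 such clone (C8) and 1 isogenic control clone (C9, here WT). Each genotype was thus represented by a single clone, and differences between the clones and effects of STAU1 loss cannot be told apart. The libraries were made by 3'READS+, which counts the reads that end at each polyadenylation site, so a value is the number of RNA 3' ends used at that position and not the level of a whole gene. Sites were included when they had at least 50 reads in both cytoplasmic libraries, which gave 5330 of the 189010 sites of the fractionation experiment. Of these, 5087 lay on chromosomes 1 to 22 and X, 175 on the mitochondrial plus strand, 67 on the mitochondrial minus strand, and 1 on an unplaced contig.

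The same experiment also held 1 polysomal library of each genotype, from polysome profiling. A separate experiment held 8 pull-down libraries, all in the knockout clone. There STAU1-FLAG was expressed transiently and the RNA bound to it was recovered (STAU1 IP), with FLAG-GFP as the control bait (GFP IP) and an input library of each, in 2 replicates per group. Every cell of the pull-down experiment therefore lacked endogenous STAU1. Sites are given by strand and position on hg19, the build named in the submitters' processing notes. Sites were not paired with genes, because no gene annotation of that build was used here, and names and roles of individual genes are therefore not given.

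Staufen1 is an RNA-binding protein that recognises double-stranded RNA, including stems formed within 3' untranslated regions. It is known for Staufen-mediated decay, in which it recruits the helicase UPF1 to an RNA and leads to its degradation, and it also acts in RNA transport and translation. A direct decay target would be expected to be more abundant in cytoplasm when the protein is missing. Many genes end their RNAs at more than one polyadenylation site, and the choice of a distal site lengthens the 3' untranslated region and can add such stems. Mitochondrial DNA is transcribed from both strands over nearly its full length, which makes complementary RNAs. The transcripts are cleaved and polyadenylated inside the organelle, and the noncoding strand's RNA is normally removed quickly.

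The KO cytoplasmic library held 3232580 reads and the WT cytoplasmic library 2904902, and the 5330 sites took up 86.5% and 88.3% of them. The polysomal libraries held 3483937 (KO) and 2799226 (WT) reads. Levels are CPM, reads relative to library depth, after scaling by trimmed mean of M values (TMM), and differences are log2 KO over WT. A count of 50 reads corresponds to 15.1 CPM in KO and 17.6 in WT. Intervals are exact 95% intervals and cover counting error only, and their median width was 0.68 log2 units. With 1 library a group no test between genotypes was possible, and a site is called higher or lower when it differed at least 2-fold. At the edge of inclusion, the 60 sites with exactly 50 reads in the lower library had a median log2 of 0.13, and the 55 excluded sites with 49 reads had 0.02.

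After scaling, most of the compared cytoplasmic 3' ends differed less than 2-fold between the libraries. The median log2 difference over all 5330 sites was -0.003, and the quartiles were -0.30 and 0.28. TMM scaling was computed on these same sites and centres them near 0, so a shift shared by most sites would not show. The minimum of 50 reads in both libraries also leaves out strongly one-sided sites. In KO, 114 sites (2.14% of those compared) were at least 2-fold higher and 86 (1.61%) at least 2-fold lower. On the nuclear chromosomes the counts were 112 (2.2%) and 81 (1.59%). In the polysomal libraries, 91 of the same 5330 sites were at least 2-fold higher (1.71%) and 76 at least 2-fold lower (1.43%). Of the 114 sites higher in cytoplasm, 104 were above 0 in polysomes and 34 were at least 2-fold higher there, with a median of 0.69. Of the 86 lower sites, 84 were below 0 in polysomes and 26 were at least 2-fold lower, with a median of -0.78. Over all 5330 sites, Pearson's r between the cytoplasmic and polysomal differences was 0.58, given as a description because these libraries come from the same 2 clones.

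The lower sites were unevenly spread over the chromosomes. On chromosome 1, 417 of 541 sites were below 0, with a median of -0.32. On chromosome 20 it was 132 of 157 sites (median -0.38), on chromosome 21 it was 40 of 54 (-0.34) and on chromosome X 114 of 147 (-0.37). The other 19 chromosomes had medians between -0.09 and 0.18. Polysomal medians of the same sites were -0.29 on chromosome 1, -0.42 on 20, -0.30 on 21 and -0.43 on X. These 4 chromosomes, set apart after their values were seen, were thus low in both fractions.

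**Figure D1:**
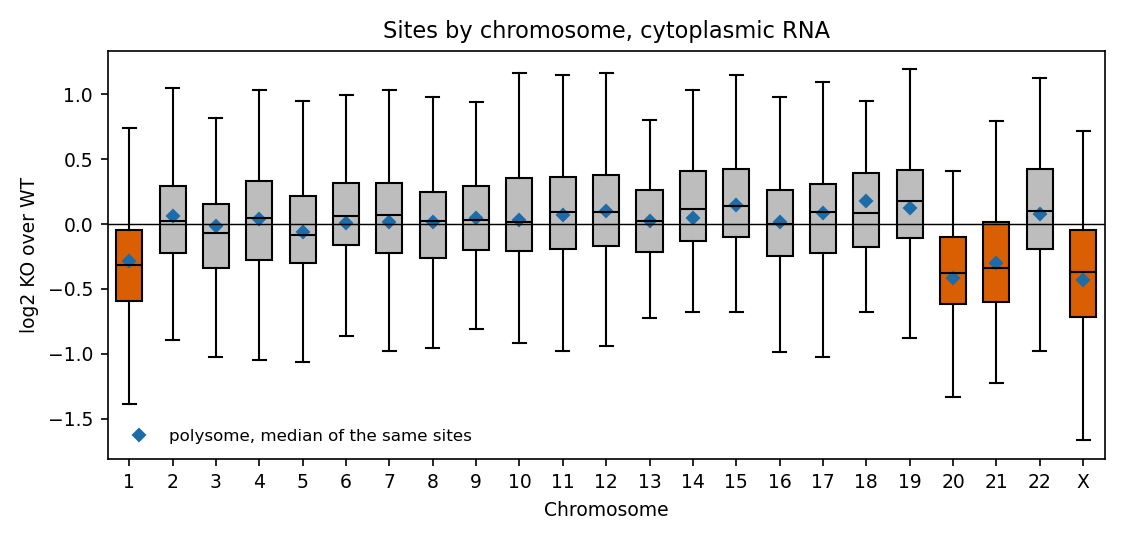
Log2 KO over WT of nuclear sites in cytoplasmic RNA, by chromosome. Boxes give the quartiles and median over sites, whiskers reach to the last site within 1.5 box lengths, sites beyond them are not drawn, and diamonds give the polysomal median of the same sites. Chromosomes 1, 20, 21 and X (orange) have medians between -0.38 and -0.32, and the other 19 lie between -0.09 and 0.18.

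These 4 chromosomes held 899 sites, 17.7% of the nuclear ones, and 41 of the 81 lower sites (50.6%). They held 6 of the 112 higher sites. The shift was not carried by a few loci. Cut into windows of 10 Mb with at least 5 sites each, 41 of 43 windows on these chromosomes had a median below 0, against 83 of 203 on the others. After subtraction of each chromosome's median, 95 nuclear sites (1.87%) were at least 2-fold higher and 53 (1.04%) at least 2-fold lower. DNA was not measured in these libraries, and whether the shift belongs to the clone or to STAU1 loss cannot be told apart.

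The lowest levels relative to WT were in a single stretch of chromosome 17. Between positions 17104311 and 18148155, a span of 1043844 nt, all 8 consecutive sites were lower in KO, 3 on the plus and 5 on the minus strand. Their log2 values ran from -2.92 to -1.61 with a median of -2.04. The lowest, at 17104311 on the minus strand, had 138 reads in KO and 894 in WT cytoplasm, and 184 and 1012 in polysomes (log2 -2.92, interval -3.19 to -2.66, and polysome -2.82). The most read, at 17150151 on the minus strand, had 746 and 3213 reads in cytoplasm and 1222 and 5614 in polysomes (log2 -2.33, polysome -2.56). The plus-strand site at 18113265 had 760 and 2398 reads in cytoplasm and 1112 and 4234 in polysomes (log2 -1.88, polysome -2.29). Both KO libraries were thus low and both WT libraries high at each of these 3 sites.

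All 8 sites were also low in polysomes, between -3.30 and -1.81. The 289 sites of the interval that did not reach 50 reads in both libraries together had 377 reads in KO and 1551 in WT cytoplasm, a log2 difference of -2.27. A site with 50 or more reads in WT falls into this set when its KO count is low. This value is therefore not a separate check of the block. The difference was smaller beyond the block. The next 10 sites, out to position 19580908, were all below 0 with a median of -0.79, ranging from -1.36 to -0.17, and had a polysomal median of -0.64. The 10 sites before it, from position 12895710, had a median of 0.19. No other run of consecutive sites at least 2-fold apart in one direction was longer than 2 sites.

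**Figure D2:**
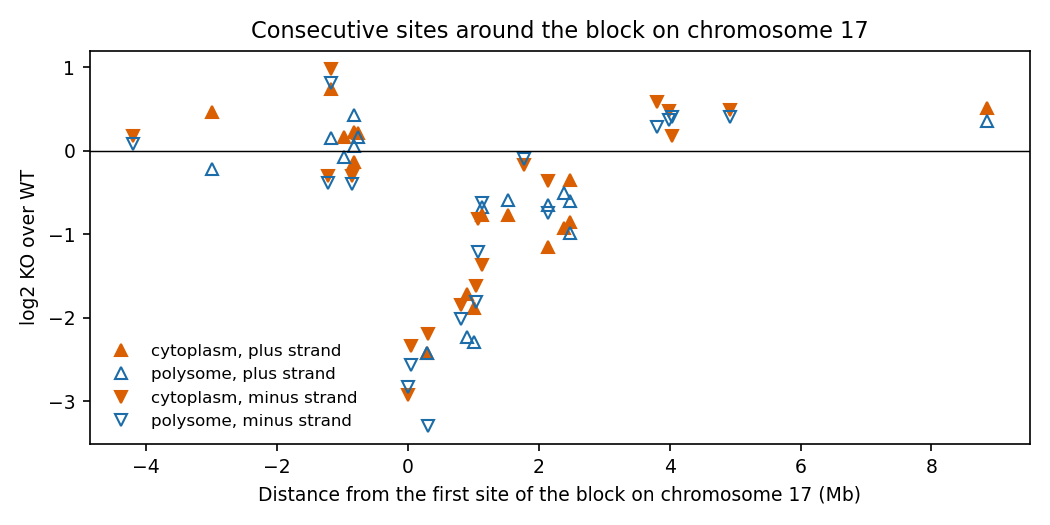
Log2 KO over WT of consecutive sites of chromosome 17 against the distance from the first site of the block, in Mb. Filled symbols are cytoplasm and open symbols polysomes, with upward triangles for the plus strand and downward triangles for the minus strand. The 8 sites of the block lie between -2.92 and -1.61 in cytoplasm, the 10 sites after it below 0, and the sites farther out on both sides around or above 0.

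Outside the block, the lowest nuclear sites lay mostly on the low chromosomes. On the plus strand of chromosome X, the site at 23704513 had 609 reads in KO and 1651 in WT cytoplasm, and 1008 and 1873 in polysomes (log2 -1.67, interval -1.80 to -1.53, polysome -1.26). On chromosome 20, the plus-strand site at 44054881 had 427 and 1053 reads in cytoplasm and 554 and 895 in polysomes (log2 -1.53, polysome -1.06). Site 28208608 (chromosome 21, minus strand) had 61 and 158 reads (log2 -1.60, polysome -1.75). Each was lower in KO in both fractions. With the median of its chromosome subtracted, the chromosome X site stood at -1.30, the chromosome 20 site at -1.15 and the chromosome 21 site at -1.26. On chromosome 5, which was not among the low chromosomes, the plus-strand site at 68400565 had 140 reads in KO and 332 in WT (log2 -1.47, polysome -0.98).

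The higher sites were scattered over many chromosomes. The largest difference was at position 57319137 on the minus strand of chromosome 11, with 485 reads in KO and 94 in WT cytoplasm, and 534 and 117 in polysomes (log2 2.14, interval 1.82 to 2.48, polysome 1.83). On chromosome X, the minus-strand site at 112018156 had 314 and 61 reads in cytoplasm and 245 and 79 in polysomes (log2 2.14, polysome 1.27), although its chromosome was low. On chromosome 2, the minus-strand site at 24300305 had 333 and 70 reads in cytoplasm and 295 and 61 in polysomes (log2 2.02, polysome 1.91). At these 3 sites KO exceeded WT in both fractions.

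Among sites with at least 1000 reads in one cytoplasmic library, the largest positive differences were at 77157608 (chromosome 10, minus strand) and 27210226 (chromosome 7, minus strand). The first had 1492 reads in KO and 408 in WT cytoplasm, and 1687 and 415 in polysomes (log2 1.64, polysome 1.66). The second had 1787 and 558 in cytoplasm and 2012 and 495 in polysomes (log2 1.45, polysome 1.66). The difference was about as large on polysomes as in cytoplasm for both. Of the runs of 2 consecutive higher sites, the closest together was at 170584055 and 170584111 on chromosome 3, minus strand (log2 1.33 and 1.44, polysomal median 1.03). Other such runs lay between 46652873 and 46673114 on the minus strand of chromosome 17 (log2 1.35 and 1.42, polysomal median 1.59) and between 176974361 and 176984664 on the plus strand of chromosome 2 (1.16 and 1.20, polysomal median 1.27).

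Of the 114 higher sites, 34 were at least 2-fold higher on polysomes, so most differed less there than in cytoplasm. The 2 sites named here are examples. Site 77618793 (chromosome 13, minus strand) had 362 and 85 reads in cytoplasm but 272 and 190 in polysomes, a log2 difference of 1.86 against 0.15. Site 18979354 (chromosome 19, minus strand) had 273 and 61 in cytoplasm and 275 and 165 in polysomes (1.94 against 0.37). In both, the KO read numbers were similar or lower on polysomes than in cytoplasm and the WT numbers were more than doubled. With 1 library of each kind, the difference between fractions was not tested.

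The knockout itself could not be checked here. Without an annotation of the build, no site was assigned to STAU1, which the RefSeq table (GRCh38) places on chromosome 20. In the pull-down experiment, 2 minus-strand sites of chromosome 20 were higher with STAU1-FLAG than with FLAG-GFP in the input libraries. Site 47732337 had 80 and 178 reads in the STAU1 inputs and 0 in either GFP input, and site 47734604 had 33 and 132 against 0 and 0. Reads at these positions thus appeared in the inputs of cells given STAU1-FLAG and in none of those given FLAG-GFP. Both kinds of input come from the knockout clone, so they do not check the loss of endogenous STAU1. The nearest cytoplasmic sites on that strand, chosen after these values were seen, were at 47730063 and 47729878. The former had 200 reads in KO and 430 in WT (log2 -1.33, interval -1.58 to -1.09, polysome -0.70). The latter had 75 and 148 reads (log2 -1.21, interval -1.63 to -0.80, polysome -1.47). Both were lower in KO than the chromosome's median of -0.38, and 3' ends outside the edited part of a gene do not check a knockout.

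Candidate Staufen decay targets were taken from the pull-down libraries, which the cytoplasmic comparison did not use. In edgeR's quasi-likelihood test over 33744 sites, with Benjamini-Hochberg adjusted p under 0.05, 1032 sites (3.06%) were higher in STAU1 IP than in its input and 1008 (2.99%) lower. The double ratio, STAU1 IP over its input divided by GFP IP over its input, gave 179 higher sites (0.53%) and 53 lower ones (0.157%). The labels do not say whether the replicates of a group came from separate cultures, so the p-values reflect the spread between libraries, which may be technical. The number of calls depended on single libraries: without GFP IP replicate 1 the double ratio was higher at 17 sites. Sites higher in both measures were the candidates, 112 in all. Of the 5330 cytoplasmic sites, 5262 had a pull-down site within 24 nt on the same strand, and 80 of the candidates were among them.

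Candidate sites differed little between KO and WT cytoplasm as a group. The median log2 of the 80 was -0.004, with quartiles of -0.32 and 0.28, beside -0.003 over all 5262 matched sites. Below 0 lay 42 of the 80. At least 2-fold higher were 2 (2.5%, beside 2.15% of all matched sites) and at least 2-fold lower also 2 (2.5%, beside 1.62%), shares near the background. With each nuclear site's chromosome median subtracted the median of the candidates was 0.05, and in polysomes it was -0.04. Without GFP IP replicate 1, which left fewer candidates, it was -0.19. The larger list of 433 sites higher in STAU1 IP than input had a median of 0.01, with 13 higher (3.00%) and 8 lower (1.85%). The 780 sites lower in STAU1 IP had a median of -0.01, with 12 higher (1.54%) and 11 lower (1.41%).

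**Figure D3:**
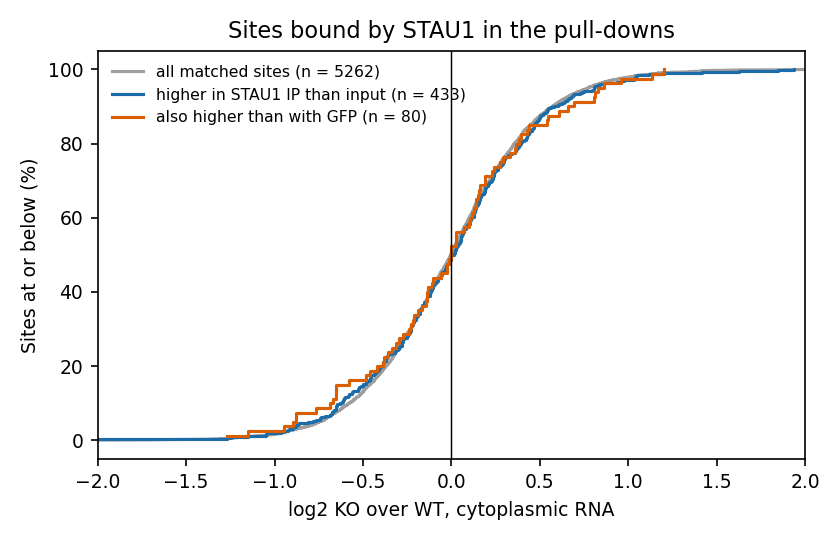
Cumulative share of sites (%) at or below each log2 KO over WT in cytoplasmic RNA, for all 5262 sites matched to the pull-downs, the 433 higher in STAU1 IP than in its input and the 80 candidates also higher than with GFP. The 3 curves cross the vertical line at 0 near 50%, with medians of -0.003, 0.01 and -0.004.

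The 3 candidates with the highest double ratio were near 0. Site 48890483 (chromosome 8, plus strand), which had the highest double ratio (log2 3.47, SE 0.55), had 358 reads in KO and 278 in WT cytoplasm, and 212 and 163 in polysomes (log2 KO over WT 0.14, interval -0.09 to 0.37, polysome 0.01). Its STAU1 IP over STAU1 input was log2 1.32. Its GFP IP libraries had 13.1 and 11.7 CPM against 56.7 and 53.6 in the GFP inputs. Part of this double ratio thus came from low values in the GFP pull-down. The GFP IP libraries, which enter every double ratio, were the shallowest of the 8 pull-down libraries, with 1291888 and 1245270 reads. Low CPM values in them rest on few reads. Site 57353328 of chromosome 17, also on the plus strand (double ratio 3.33, SE 0.54), had 224 and 168 reads (log2 0.19, interval -0.11 to 0.49, polysome 0.20). Site 2939666 of chromosome 4, on the minus strand (double ratio 3.03, SE 0.44), had 245 and 213 reads (log2 -0.02, interval -0.30 to 0.25, polysome -0.15). Each of these 3 intervals includes 0. All 3 lie below a 2-fold higher level. The 10 candidates with the highest double ratio ranged from -0.46 to 0.81. In 4 of the 10 the interval left out 0, with values of -0.46 (65619548, chromosome 7), 0.81 (15117475, chromosome 10), -0.42 (75008608, chromosome 10) and 0.44 (68522355, chromosome 11).

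The 2 candidates at least 2-fold higher were on chromosomes 11 and 19. Site 64979476 (chromosome 11, plus strand) had 286 reads in KO and 106 in WT cytoplasm, and 133 and 48 in polysomes (log2 1.21, interval 0.88 to 1.54, polysome 1.11). Site 7585911 (chromosome 19, plus strand) had 658 and 256 in cytoplasm and 748 and 429 in polysomes (log2 1.14, interval 0.92 to 1.35, polysome 0.44). The 2 lower candidates were also on plus strands: 24122027 of chromosome 1, with 51 and 105 reads (log2 -1.27, polysome -0.12), and 19240027 of chromosome 17, with 181 and 344 (log2 -1.15, polysome -0.65). The latter is among the 10 low sites that follow the chromosome 17 block.

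Sites with a lower double ratio, less enriched in the STAU1 pull-down than in the GFP pull-down, included several that were low in KO cytoplasm. Of the 53, 24 were cytoplasmic sites, with a median of -0.17, and 7 of them (29.2%) were at least 2-fold lower in KO, beside 1.62% of all matched sites. At least 2-fold higher was 1 (4.17%, beside 2.15%), the minus-strand site at 186282962 on chromosome 1, which had the lowest double ratio of the 24 (log2 -2.52) and 287 reads in KO and 95 in WT cytoplasm (log2 1.37, polysome -0.07). In polysomes the median of the 24 was -0.10. Without GFP IP replicate 1, only 5 of the 33744 sites had a lower double ratio. Site 100778222 (chromosome 9, plus strand) had 190 reads in KO and 395 in WT cytoplasm but 184 and 153 in polysomes (log2 -1.28, polysome -0.10). Site 79845719 (chromosome 17, minus strand) had 351 and 658 in cytoplasm and 358 and 300 in polysomes (-1.13, polysome -0.11). Site 50050303 (chromosome 14, minus strand) had 891 and 1682 in cytoplasm and 699 and 684 in polysomes (-1.14, polysome -0.33). In these 3 the WT cytoplasmic library stood above the other 3 libraries in reads. Of the other 4, the plus-strand site at 149779856 on chromosome 5 and minus-strand mitochondrial site 246 were closer to 0 in polysomes (-0.13 and -0.24), while the minus-strand sites at 10973084 on chromosome 7 and 2204804 on chromosome 16 were at -0.62 and -1.01.

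The inputs of the pull-downs show the knockout clone with STAU1 put back, beside the same clone with GFP. There, STAU1-FLAG against FLAG-GFP gave 3 sites higher (0.00889%) and 0 lower (0%) of 33744 in edgeR, with 638 and 717 at an unadjusted p under 0.05, and DESeq2 gave 10 higher and 0 lower. Without GFP input replicate 1 or replicate 2, 0 were higher, and without STAU1 input replicate 2, 10 were higher and 32 lower. Of the 3 sites called higher in edgeR, both chromosome 20 sites are described above. The third was the plus-strand site at 72471512 on chromosome 5 (log2 3.11). It had 91 and 143 reads in the STAU1 inputs and 9 and 19 in the GFP inputs. The 113 matched sites that were at least 2-fold higher in KO had a median log2 of -0.04 in STAU1 input over GFP input, the 85 lower ones also -0.04, and all matched sites -0.09. None of either set was called, but only 3 of all 33744 sites were, so this says little about these sets. Across the 5262 matched sites Pearson's r between the cytoplasmic difference and this input difference was 0.01. These inputs are total-cell lysates of transiently transfected cells, and the cytoplasmic libraries are not.

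Mitochondrial RNA differed between the strands in its share of all reads. The plus strand of the mitochondrial genome made up 9.93% of reads in KO (interval 9.90 to 9.96) and 10.4% in WT cytoplasm (10.38 to 10.45), and in polysomes 3.61% and 4.28%. The minus strand made up 3.98% (3.96 to 4.00) and 7.90% (7.87 to 7.94) in cytoplasm, and 0.805% and 0.975% in polysomes. The minus-strand share of WT cytoplasm was thus about double that of KO. The plus-strand share differed far less.

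The minus-strand difference lay mainly at 1 site. Position 219 had 87258 reads in KO and 188306 in WT cytoplasm, and 17465 and 20919 in polysomes (log2 -1.34, interval -1.35 to -1.32, polysome -0.62). It made up 67.8% of minus-strand mitochondrial reads in KO and 82.0% in WT. Over all 67 minus-strand sites the median was -0.03, with a range of -1.95 to 1.97. The window of the first 600 positions, chosen after the values were seen, held 11 minus-strand sites, all below 0 with a median of -0.50, and the 56 sites beyond it had a median of 0.11, with 24 below 0. Position 360 had 1506 reads in KO and 4074 in WT cytoplasm, and 231 and 288 in polysomes (log2 -1.66, polysome -0.68). Position 284 had 99 and 328, and 17 and 15 in polysomes (-1.95, polysome -0.18).

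Beyond that window, minus-strand reads were not lower in KO. All minus-strand sites there together had 24266 reads in KO and 18492 in WT cytoplasm (log2 0.17), and 8116 and 4126 in polysomes (0.61). The largest difference was at position 15396, with 289 reads in KO and 63 in WT cytoplasm and 71 and 13 in polysomes (log2 1.97, interval 1.57 to 2.39, polysome 2.08). Position 3250, the most read minus-strand site outside the window, had 2340 and 1655 in cytoplasm and 1088 and 606 in polysomes (0.27, polysome 0.48).

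**Figure D4:**
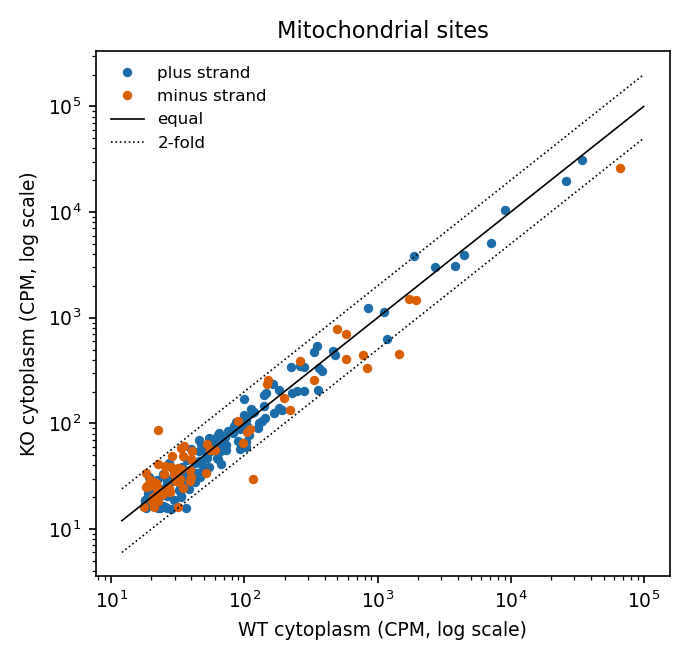
Level of each mitochondrial site in WT (x axis) and KO (y axis) cytoplasmic RNA, in CPM on log axes, with the plus strand in blue and the minus strand in orange. The solid line marks equal levels and the dotted lines a 2-fold difference. The most read minus-strand site, at 66470 CPM in WT and 26325 in KO, lies under the lower dotted line, and the 5 most read plus-strand sites lie between the dotted lines.

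On the plus strand, which carries most of the coding transcripts as sense RNA in these coordinates, the 175 sites had a median of -0.08. The most read, at 9991, had 102151 reads in KO and 97271 in WT cytoplasm, and 56497 and 46311 in polysomes (log2 -0.16, polysome -0.08). Position 9206 had 64692 and 74020 in cytoplasm and 15601 and 22502 in polysomes (-0.42, polysome -0.89). The third most read, at 12138, was higher in KO cytoplasm, with 34662 and 25607 reads, and lower in polysomes, with 7467 and 9707 (0.21, polysome -0.74). Position 15888 had 16765 and 20171 in cytoplasm and 14202 and 14529 in polysomes (-0.49, polysome -0.40). Positions 9991, 9206 and 15888 were thus lower in KO in both fractions, and 12138 was not. Position 3230 stood out on the other side, with 12589 reads in KO and 5287 in WT cytoplasm and 943 and 464 in polysomes (log2 1.03, interval 0.98 to 1.07, polysome 0.66). It was the only plus-strand mitochondrial site at least 2-fold higher, and position 10127, with 52 and 103 reads, the only one at least 2-fold lower (-1.21). The mitochondrial candidate of the pull-downs, position 5900, had 4060 reads in KO and 2388 in WT cytoplasm and 469 and 195 in polysomes (log2 0.54, interval 0.47 to 0.61, polysome 0.90).

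The use of proximal and distal 3' ends was compared in pairs of neighbouring sites on the same strand. Sites were grouped into runs with gaps of at most 5000 nt, and the 2 most read sites of a run, at least 100 and at most 5000 nt apart, made a pair. Without gene annotation, the 2 sites of a pair may be ends of different genes. A changed share therefore need not be a change in the choice of 3' end. This gave 469 pairs, 100 to 4973 nt apart with a median of 731 nt. The distal share is the reads of the site farther along the strand as a percent of both. Its median over pairs was 49.4% in WT and 49.7% in KO. The change, KO minus WT, had a median of 0.54 percentage points and an SD over pairs of 6.58. The distal share was at least 10 points higher in KO in 42 pairs (8.96%) and at least 10 points lower in 21 (4.48%).

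The balance of higher and lower shares in cytoplasm differed with the distance between the sites. The cuts at 300 and 1000 nt were not part of the planned comparison. Of the 129 pairs less than 300 nt apart, 3 were at least 10 points higher (2.33%) and 9 lower (6.98%), with a median change of -0.46. Of the 149 pairs 300 to 1000 nt apart, 14 were higher (9.40%) and 9 lower (6.04%), with a median of 0.76. Of the 191 pairs 1000 nt or more apart, 25 were higher (13.1%) and 3 lower (1.57%), with a median of 1.11. Over all pairs the shares were 8.96% and 4.48%. Spearman's rho between change and distance over the 469 pairs was 0.14, a description over pairs that share the same 2 libraries. In polysomes the median change of pairs 1000 nt or more apart was 1.04, with 12 at least 10 points higher and 3 lower. The other distance groups had the opposite sign there, with medians of 0.17 under 300 nt and -0.25 from 300 to 1000 nt.

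**Figure D5:**
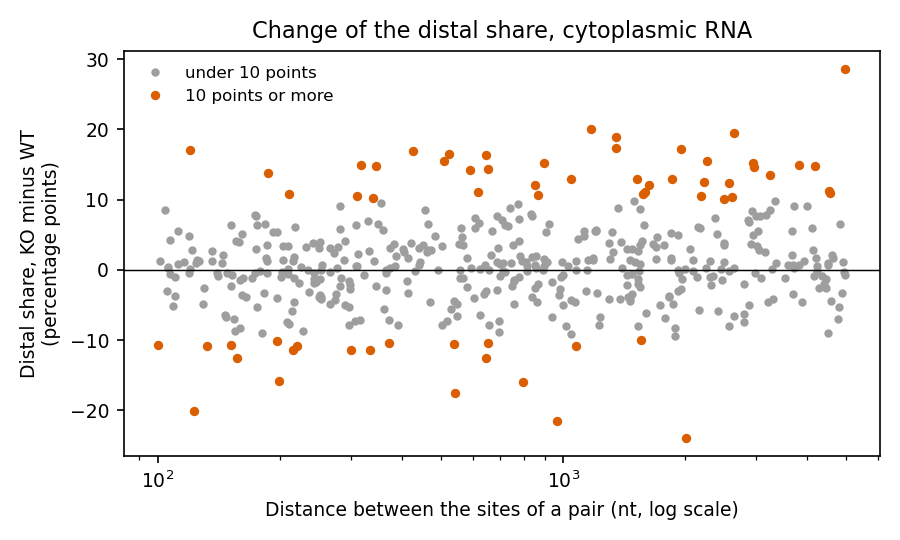
Change of the distal share between KO and WT cytoplasmic RNA, in percentage points, against the distance between the 2 sites of a pair on a log axis, 1 point per pair. Orange points differ by 10 points or more: 42 pairs above and 21 below 0. Among pairs 1000 nt or more apart, 25 lie above and 3 below.

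The largest positive difference of a distal share was on the minus strand of chromosome 19, between sites 19292686 and 19287719. The KO library had 94 proximal and 141 distal reads (60.0% distal) and the WT library 168 and 77 (31.4%), a difference of 28.6 points with a counting interval of 19.8 to 36.7. In polysomes the shares were 56.5% and 39.3%, 17.2 points apart, so the share of the distal site was higher in KO in both fractions. These sites lie 4967 nt apart and were not assigned to a gene. On the minus strand of chromosome 11, the pair 85372113 and 85370760 had 77.2% distal in KO and 58.3% in WT (18.8 points, interval 10.8 to 26.7, and 12.8 in polysomes). On the plus strand of chromosome 7, the pair 26252058 and 26253227 had 44.4% and 24.4% (20.0 points, interval 13.2 to 26.4, and 6.10 in polysomes). The pair 75893332 and 75890685 on the minus strand of chromosome 12 had 66.7% and 47.2% in cytoplasm (19.5 points), but in polysomes KO was lower by 5.33 points, at 56.8% against 62.2%.

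The largest negative difference was on the minus strand of chromosome 11, between sites 65487156 and 65485146. The KO library had 483 proximal and 238 distal reads (33.0% distal) and the WT library 186 and 246 (56.9%), a difference of -23.9 points (interval -29.6 to -18.1). In polysomes the shares were 26.8% and 50.8%, a difference of -24.0. In this pair the proximal site was higher in KO (log2 1.15) and the distal one lower (-0.27). On the plus strand of chromosome 12, the pair 54744659 and 54745627 had 49.3% and 70.9% distal (-21.6 points, interval -27.4 to -15.4, and -15.5 in polysomes), with the proximal site at log2 1.31 and the distal at -0.01. On the plus strand of chromosome 9, the pair 100778099 and 100778222 had 40.6% and 60.7% (-20.1 points) but 36.7% in both polysomal libraries. The lower distal site of that pair is one of the 7 sites with a lower double ratio described above.

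Agreement between the fractions was partial. Of the 42 pairs with a higher distal share, 29 were above 0 in polysomes and 6 were at least 10 points higher there, beside 253 and 21 of all 469 pairs. Of the 21 with a lower share, 13 were below 0 and 3 were at least 10 points lower, beside 215 and 12 of all pairs. Pearson's r between the cytoplasmic and polysomal changes over the 469 pairs was 0.32. The 0.58 found for single sites is on log2 differences of levels and not on shares, so it is not a like measure. By position in the run, the 566 most proximal sites had a median log2 of -0.09, the 98 middle sites -0.11, the 566 most distal -0.02 and the 3857 sites alone in their run 0.02, with quartiles that overlapped widely.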

How the data were processed

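Reads per polyadenylation site were measured by 3'READS+ in 4 fraction and 8 pull-down libraries. The authors deposited 2 tables of raw read counts per site. STAR and hg19 are named in the submitters' processing notes; versions and the rule for joining reads into sites are not given in the sources used here. Cytoplasmic counts were scaled by TMM (edgeR 4.0.16, R 4.3.3; factors 1.025 for KO and 0.975 for WT), with no pseudocount. Ratios have exact conditional binomial (Clopper-Pearson) 95% intervals, and differences of shares Newcombe intervals. PCR copies make reads less independent than these intervals assume. Mitochondrial and nuclear sites were scaled together.

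Pull-down counts (1245270 to 9655646 reads per library) were fitted with edgeR's quasi-likelihood test over 4 groups, with filterByExpr, TMM and Benjamini-Hochberg adjustment at 0.05, and with DESeq2 1.42.0 as an alternative. The procedure was tested on simulated data. Pull-down and fraction sites were joined within 24 nt. Alternatives changed the scaling, the read minimum (20 and 200), the filter, the run gap (2000 nt), the block and each replicate. Named sites were the 12 highest and 12 lowest nuclear sites by log2 difference, the 6 of each with 1000 reads, the 5 most read mitochondrial sites per strand and the 8 pairs changing most each way, of which a part is printed; candidates, mitochondrial sites past 2-fold and the remaining sites were chosen after their values were seen. The planned gene and marker lists were not used, because no annotation of the build was used to pair sites with genes; nor could the cell line be checked against markers. The sites and lists were chosen with earlier results of these data known.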

Additional observations from a re-analysis of the deposited data

Results flagged for a closer look

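At 3 named sites the KO over WT difference had opposite signs in cytoplasm and polysomes with a polysomal counting interval that excluded 0, and this difference between fractions was not tested because each holds 1 library per genotype. The plus-strand site at 27466653 on chromosome 2 had 305 reads in KO and 86 in WT cytoplasm but 76 and 93 in polysomes, so log2 was 1.60 in cytoplasm and -0.66 in polysomes. The minus-strand site at 56119258 on chromosome 12 had 1881 and 779 in cytoplasm and 2362 and 1950 in polysomes, with log2 values of 1.05 and -0.088. Its polysomal value was close to 0, and whether the interval excludes 0 depends on the scaling used. Mitochondrial plus-strand position 12138 had 34662 and 25607 in cytoplasm and 7467 and 9707 in polysomes, with log2 values of 0.21 and -0.74. Mitochondrial minus-strand position 80 also had opposite signs, -0.40 in cytoplasm and 0.06 in polysomes, but its polysomal interval included 0.

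Among sites left out by the minimum of 50 reads in both libraries, 3 had at least 50 reads in KO and at most 3 in WT cytoplasm. The plus-strand site at 46185093 on chromosome 11 had 170 reads in KO and 0 in WT cytoplasm, and 191 and 0 in polysomes. Against a floor of 3 reads in the WT library it was at least 48.4-fold higher in KO cytoplasm; that floor allows for counting error in WT alone, and with error in both libraries the lower limit was a log2 of 5.28. It had no pull-down site within 24 nt, although those libraries come from the KO clone. The plus-strand site at 73373856 on chromosome 11 had 59 and 3 reads in cytoplasm (log2 4.07, counting interval 2.45 to 6.39) and 78 and 19 in polysomes. The minus-strand site at 89365284 on chromosome 16 had 51 and 3 in cytoplasm (log2 3.86, interval 2.23 to 6.19) and 35 and 14 in polysomes.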

How the results depend on the processing

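Sites at least 2-fold higher numbered 294 and lower 242 with a minimum of 20 reads, and 17 and 22 with 200. The number of sites compared changes with the minimum, so these counts alone do not show a change in the share. Settings chosen after seeing the data lowered the 81 lower nuclear sites to 53 (minus the chromosome median) and the 86 lower sites to 45 (without chromosomes 1, 20, 21 and X). Leaving out these chromosomes also removed 899 sites. On the other chromosomes 40 of 4188 nuclear sites were lower (0.955%), beside 1.59% of all nuclear sites. The mitochondrial plus median was -0.0078 with library totals and 0.038 at 200 reads, and the minus median 0.038 and -0.34. Pairs 10 points higher and lower numbered 102 and 62 at 20 reads, and 5 and 2 at 200, from different numbers of pairs. The pull-down fit without a filter tested 640413 sites, and the other pull-down settings tested 33744. The double ratio was higher at 307 sites without a filter (0.0479%) and at 425 in DESeq2 (1.26%), beside 0.53% in the main setting. It was lower at 96 with RLE, 97 with library totals and 316 in DESeq2. Leaving out single pull-down libraries gave 17 (without GFP IP replicate 1) to 390 (without STAU1 input replicate 2) sites with a higher and 5 to 111 with a lower double ratio, by the same libraries. STAU1 input over GFP input gave 10 higher sites and 1 lower without a filter and 10 higher in DESeq2, and without single libraries 0 (without either GFP input) to 10 higher and 0 to 32 lower (both upper values without STAU1 input replicate 2). The candidates' median was 0.068 with library totals, 0.046 minus the chromosome median, and -0.19 (without GFP IP replicate 1) to 0.027 (without STAU1 input replicate 1) without single libraries, including 0.011 without GFP input replicate 1. The causes were not tested.

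Same-numbered pull-down libraries did not deviate together, with correlations from -0.20 to 0.09 over 5812 sites, so the numbers were not taken to pair them. With the replicate block the double ratio was higher at 389 and lower at 123 sites, and STAU1 input over GFP input was higher at 6. No paired analysis was possible for the fractions because each genotype has 1 library. At 50 reads counting error alone spans up to 1.19 log2 units.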
